A study of Oryza sativa with 12 samples.

Results

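Roots of OX6, a rice line that overexpresses Zaxinone Synthase (ZAS), were compared with wild-type Nipponbare roots (WT) across every gene with enough reads. The comparison takes 6 of the 12 libraries of the series, 3 of OX6 roots and 3 of WT roots, and both groups were 21-day-old plants grown hydroponically. The other 6 libraries, OX6 and WT shoots of the same age, are used only to show where roots differ from them. OX6 is 1 transgenic line, so an effect of ZAS and any other difference between the seed stocks cannot be told apart. Neither the promoter that drives ZAS nor the number of plants per library is given in the sources used here.

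ZAS cleaves carotenoid-derived substrates to give zaxinone, an apocarotenoid known as a growth regulator in rice. Carotenoid cleavage also feeds the synthesis of strigolactones and abscisic acid. In roots, type-A response regulators are switched on quickly by cytokinin and dampen its signal, while nitrate and phosphate supply are read through their own sets of transporters and sensors. These statements are background and not results of the libraries described here.

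Polyadenylated RNA was counted per gene, with 35211101 to 37910143 counts per library. Values are CPM, each gene's counts relative to the depth of its library, scaled by effective library size, and given as mean ± SD of n = 3 libraries. A gene is called when its adjusted p from edgeR's quasi-likelihood test is under 0.05. The labels do not say whether replicates were separate plants, so a p-value speaks only of the spread among these libraries. In bulk RNA, fewer cells of a type and less RNA per cell cannot be told apart. The genotypes separated on the first principal component, which held 42.8% of the variance, and OX6 root replicate 1 stood apart from the other OX6 libraries on the second, at 18.3%. The 90 leaf marker models summed to 163 to 221 CPM in WT roots and 128 to 177 CPM in OX6 roots, against 151600 to 197200 CPM in shoots. The 30 root marker models summed to 15930 to 16550 CPM in WT roots and 15410 to 19170 CPM in OX6 roots. Shoots reached 10310 to 14730 CPM on the root list, so that list separated the organs little.

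Of 26574 genes tested, 753 (2.83%) were called, 317 higher in OX6 (1.19%) and 436 lower (1.64%). Many differences were small: 356 of the called genes, or 47.3%, changed less than 1.5-fold, and 224 genes (0.843% of those tested) changed at least 2-fold. Over 4-fold, the balance was 64 higher against 33 lower, and between 1.5- and 2-fold it was 54 higher against 119 lower. By edgeR, 3622 of the 26574 genes had an unadjusted p under 0.05, the figure to set beside such counts in the lists below. The median log2 fold change of all genes tested was 0.0024. In 5041 genes (19.0%) the values of the genotypes did not overlap, and all 753 called genes were among them. ZAS itself (LOC_Os09g15240) stood at 3.29, 3.38 and 2.96 CPM in the WT libraries and 364, 356 and 372 CPM in the OX6 libraries. Every OX6 library was therefore on the side of its label. Of the 753 genes, 312 were called again in each of the 6 fits that left out 1 library, 135 higher and 177 lower. Without OX6 root replicate 1, which stood apart, 773 genes were called, and 576 of the 753 were among them. In a fit of all 12 libraries, roots and shoots sharing 1 estimate of the spread, 261 of the 753 were called.

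**Figure D1:**
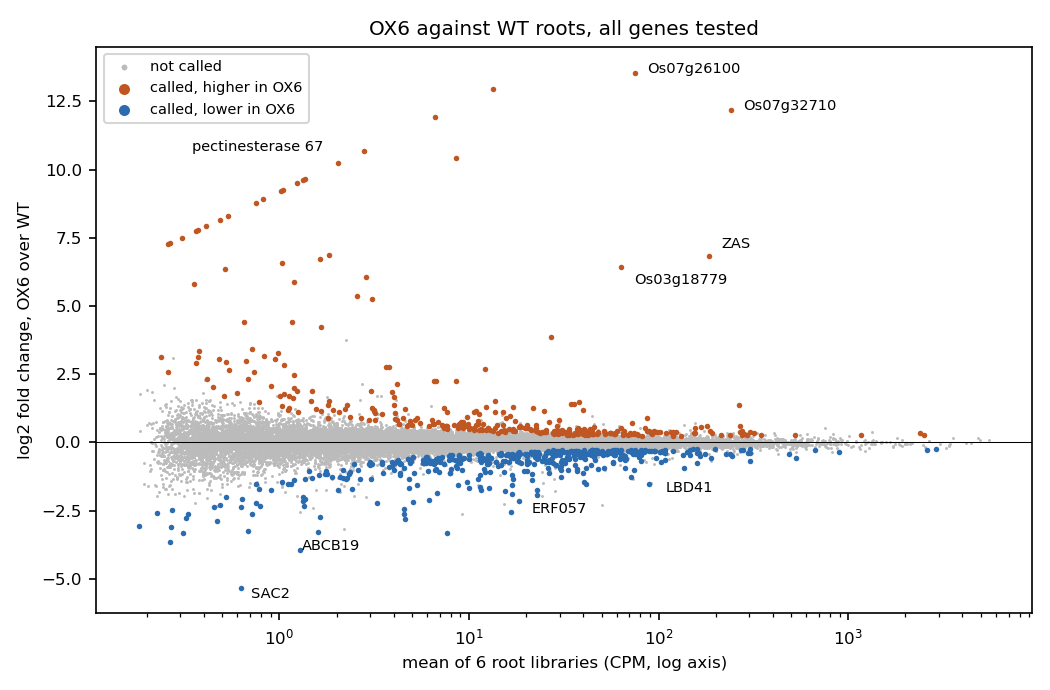
Log2 fold change of OX6 over WT roots against the mean level in CPM (log axis) for the 26574 genes tested; coloured points are called genes. The 436 genes called lower and the 317 called higher lie mostly close to 0. The line of points above the others, rising to the right, is mostly of genes with no or few counts in WT. Their fitted fold change depends on the prior count.

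Cytokinin genes gave the list with the highest share of calls. Of the type-A response regulator list, 5 of 9 tested members were called higher and 0 lower, and the median log2 fold change was 0.38. ORR6 (LOC_Os04g57720, chromosome 4, 34375978 to 34377357) was measured at 9.58, 9.59 and 10.4 CPM in the WT libraries and 25.6, 23.8 and 23.6 CPM in the OX6 libraries. ORR10 (LOC_Os12g04500, chromosome 12, 1915856 to 1917598) was measured at 21.9, 18.3 and 18.7 CPM in the WT libraries and 59.9, 48.6 and 48 CPM in the OX6 libraries. ORR9 (LOC_Os11g04720, chromosome 11, 2013371 to 2015405) was measured at 19.6, 20 and 17.4 CPM in the WT libraries and 58.4, 47.4 and 44.4 CPM in the OX6 libraries. In all 3 genes every OX6 library lay above every WT library, and OX6 root replicate 1 was the highest library for each. Their log2 fold changes were 1.30 (SE 0.09), 1.41 (SE 0.10) and 1.40 (SE 0.10), with adjusted p = 2.02e-07, 5.42e-07 and 9.33e-07 by edgeR. ORR2 rose less, from 69.3 ± 4.65 to 99 ± 1.86 CPM (a log2 fold change of 0.51 with SE 0.07, adjusted p = 2.17e-04), and ORR4 rose from 57.2 ± 5.04 to 73 ± 3.82 CPM (a log2 fold change of 0.35 with SE 0.07, adjusted p = 0.0161). ORR9 overlaps LOC_Os11g04730 on the opposite strand, and its region and that of ORR10 are copies of each other on chromosomes 11 and 12, so reads of the pair may be mixed. By edgeR on 5 libraries, the call was lost for ORR4 without WT root replicate 2 or 3 (adjusted p from 0.0886 to 0.0956). ORR4 was not called in the fit of all 12 libraries.

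Among the enzymes that make, activate or break down cytokinins, 1 of 26 tested members was called higher and 2 lower, and the median log2 fold change was 0.03. Cytokinin hydroxylase (LOC_Os08g33300, chromosome 8, 20761534 to 20763853), which forms trans-zeatin-type cytokinins, fell from 15.9 ± 0.639 to 6.88 ± 0.312 CPM (a log2 fold change of -1.21 with SE 0.10, adjusted p = 1.68e-06). Cytokinin dehydrogenases degrade the hormone, and their members moved in opposite directions. Cytokinin dehydrogenase 3 (LOC_Os10g34230) was measured at 28.7, 28.4 and 26.8 CPM in the WT libraries and 40.9, 39.6 and 36.4 CPM in the OX6 libraries, with no overlap (a log2 fold change of 0.48 with SE 0.07, adjusted p = 0.00115). Cytokinin dehydrogenase 9 (LOC_Os05g31040) was measured at 3.38, 3.16 and 3.07 CPM in the WT libraries and 0.952, 1.29 and 1.57 CPM in the OX6 libraries, again with no overlap and in the other direction (a log2 fold change of -1.33 with SE 0.22, adjusted p = 0.00258). None of the 10 tested cytokinin histidine kinases and phosphotransfer proteins was called by edgeR (3 with an unadjusted p under 0.05, 0 called by DESeq2 and 0 by limma-voom), and none of the 5 type-B response regulators (0 with an unadjusted p under 0.05, 0 called by DESeq2 and 0 by limma-voom). The most abundant of these, histidine kinase 3 (LOC_Os01g69920), had 162, 173 and 152 CPM in the WT libraries and 154, 163 and 142 CPM in the OX6 libraries, and its groups overlapped. Cytokinin dehydrogenase 3 was not called in the fit of all 12 libraries.

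**Figure D2:**
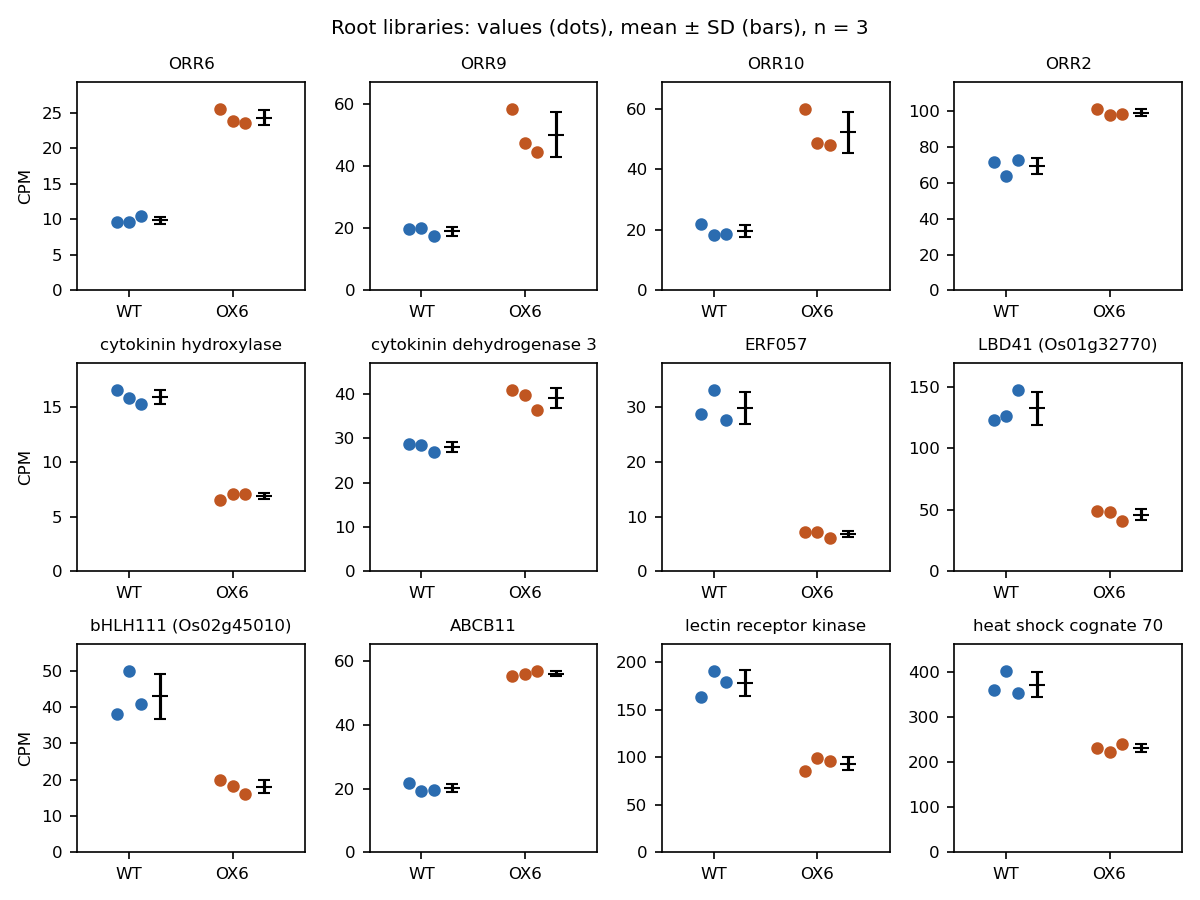
CPM of 12 called genes in each root library (dots, WT left in blue, OX6 right in orange) with the mean and SD beside them; every vertical axis starts at 0. In each of the 12 genes the 3 OX6 libraries lie wholly above or wholly below the 3 WT libraries. All 753 called genes showed this separation, so it follows from the choice of called genes.

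Other hormone lists held few calls in number, although the share called in the smaller lists lay above the 2.83% of all genes tested. It was 28.6% of 7 carotenoid cleavage genes, ZAS included, and 12.5% of 8 genes of abscisic acid synthesis and breakdown. In the gibberellin list it was 12.5% of 24, and in the abscisic acid receptor, phosphatase and kinase list 5.71% of 35. A second carotenoid cleavage gene was called besides ZAS: a homologue of CCD8 (LOC_Os01g38580), an enzyme of strigolactone synthesis, at 2.99, 1.96 and 3.23 CPM in the WT libraries and 6.03, 4.78 and 8.46 CPM in the OX6 libraries. Its OX6 values lay above the WT values although the spread among OX6 libraries was wide (a log2 fold change of 1.24 with SE 0.23, adjusted p = 0.011). The abscisic acid receptor PYL2 (LOC_Os06g36670) fell from 7.79 ± 1.23 to 4.9 ± 0.348 CPM (a log2 fold change of -0.67 with SE 0.14, adjusted p = 0.0159), one of the 2 called lower among 35 tested receptors, phosphatases and kinases of that pathway. Of 8 tested genes of abscisic acid synthesis and breakdown, 1 was called lower and 0 higher. Their median log2 fold change was -0.28, with 6 below 0 and 2 above. The 1 call was kept in all 6 fits that left out 1 library. In the gibberellin list, 1 of 24 tested members was called higher and 2 lower, and the median log2 fold change was -0.08. Gibberellin 2-beta-dioxygenases inactivate the hormone; LOC_Os07g01340 rose from 33.7 ± 1.79 to 41.8 ± 2.07 CPM (adjusted p = 0.0287) while LOC_Os01g55240 fell from 75.6 ± 11.3 to 54.4 ± 5.37 CPM (adjusted p = 0.032). The gibberellin receptor GID1 (LOC_Os05g33730) fell from 173 ± 8.99 to 145 ± 6.11 CPM (adjusted p = 0.0411). Of 121 auxin genes (2.48% called, beside 2.83% of all genes tested) 2 were called higher and 1 lower. The auxin efflux carrier 5b gene (LOC_Os09g32770) fell from 14.8 ± 1.2 to 9.52 ± 0.448 CPM (a log2 fold change of -0.63 with SE 0.10, adjusted p = 0.00163). None of the 31 ethylene genes was called by edgeR (5 with an unadjusted p under 0.05, 0 called by DESeq2 and 0 by limma-voom), and none of the 49 jasmonate genes (10 with an unadjusted p under 0.05, 2 called by DESeq2 and 1 by limma-voom). With 1 library left out, edgeR no longer called PYL2 without WT root replicate 2 or OX6 root replicate 2 (adjusted p from 0.0687 to 0.114), LOC_Os07g01340 without WT root replicate 1 or 3 or OX6 root replicate 1 or 3 (adjusted p from 0.0548 to 0.159), LOC_Os01g55240 without WT root replicate 2 or 3 or OX6 root replicate 2 or 3 (adjusted p from 0.0662 to 0.131), and GID1 without WT root replicate 1, 2 or 3 or OX6 root replicate 1 or 2 (adjusted p from 0.0705 to 0.198). PYL2, LOC_Os07g01340, LOC_Os01g55240, GID1 and the auxin efflux carrier 5b gene were not called in the fit of all 12 libraries.

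The called genes of nitrate reduction and amino acid transport were mainly lower. The share called was 13.0% of the nitrate list and 10.3% of the amino acid and peptide transporters, beside 2.83% of all genes tested. Of the nitrate list, 0 of 23 tested members were called higher and 3 lower, and the median log2 fold change was -0.19, with 18 of 23 members below 0. Siroheme synthase (LOC_Os01g44050), which makes the cofactor of nitrite reductase, was measured at 154, 165 and 157 CPM in the WT libraries and 125, 122 and 123 CPM in the OX6 libraries. The groups were far apart relative to their spread (a log2 fold change of -0.36 with SE 0.06, adjusted p = 0.00212). Ferredoxin-nitrite reductase (LOC_Os01g25484) fell from 2829 ± 133 to 2359 ± 113 CPM (a log2 fold change of -0.26 with SE 0.07, adjusted p = 0.0463), and was among the 12 largest falls in CPM. Glutamate dehydrogenase 1 (LOC_Os03g58040) fell from 304 ± 9.16 to 254 ± 4.75 CPM (adjusted p = 0.0247) and was the 1 member called of 13 genes of glutamine, glutamate and asparagine synthesis. Of amino acid and peptide transporters, 1 of 58 tested members was called higher and 5 lower, and the median log2 fold change was -0.02. Over 14 alternative fits, the count called lower ran from 2 to 6, and it was 3 when WT root replicate 2 or WT root replicate 3 or OX6 root replicate 1 or OX6 root replicate 3 was left out. Amino acid permease 6 (LOC_Os01g65660) was measured at 14.5, 18.2 and 15 CPM in the WT libraries and 8.19, 10.3 and 9.24 CPM in the OX6 libraries (a log2 fold change of -0.78 with SE 0.12, adjusted p = 8.66e-04). The lysine histidine transporter-like 6 gene (LOC_Os04g38860) fell from 88.3 ± 10.4 to 65.4 ± 2.79 CPM (adjusted p = 0.00585), and a putative sodium-coupled neutral amino acid transporter (LOC_Os02g09810) fell from 58.8 ± 4.37 to 42.5 ± 0.414 CPM (adjusted p = 0.00102). The member that rose was the lysosomal amino acid transporter 1 gene (LOC_Os01g16170), from 17.8 ± 2.41 to 24.4 ± 1.03 CPM (adjusted p = 0.0161). In edgeR fits that left out 1 library, the call was lost for nitrite reductase without WT root replicate 1, 2 or 3 or OX6 root replicate 1 or 3 (adjusted p from 0.0587 to 0.225), glutamate dehydrogenase 1 without WT root replicate 1, 2 or 3 or OX6 root replicate 2 or 3 (adjusted p from 0.0505 to 0.165), and LOC_Os01g16170 without WT root replicate 2 or 3 or OX6 root replicate 2 (adjusted p from 0.0712 to 0.115). Nitrite reductase, glutamate dehydrogenase 1, LOC_Os04g38860 and LOC_Os01g16170 were not called in the fit of all 12 libraries.

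Phosphate, metal and water transport genes moved in both directions. Of 13 phosphate transporters 2 were called higher, and the less abundant of them (LOC_Os10g30770) was measured at 2.09, 2.18 and 1.55 CPM in the WT libraries and 4.24, 5.2 and 3.6 CPM in the OX6 libraries (a log2 fold change of 1.17 with SE 0.20, adjusted p = 0.00374). SPX domain proteins sense phosphate status, and of 8 tested 1 was called higher and 1 lower. SPX2 (LOC_Os02g10780) was measured at 5.6, 6.21 and 4.34 CPM in the WT libraries and 1.3, 0.867 and 1.28 CPM in the OX6 libraries (a log2 fold change of -2.23 with SE 0.22, adjusted p = 8.33e-06), and was called lower in all 14 alternative fits. An SPX domain membrane protein (LOC_Os06g03860) rose from 40.1 ± 2.45 to 49.6 ± 1.44 CPM (adjusted p = 0.0246). In the iron and metal list, 3 of 108 tested members were called higher and 4 lower, and the median log2 fold change was 0.03. Vacuolar iron transporter 1.2 (LOC_Os09g23300), which moves iron into the vacuole, was measured at 45.4, 52.2 and 51.8 CPM in the WT libraries and 21.3, 24.4 and 26.5 CPM in the OX6 libraries. Every OX6 library lay far below every WT library (a log2 fold change of -1.05 with SE 0.09, adjusted p = 2.11e-06). Nicotianamine synthase 3 (LOC_Os07g48980), which makes a metal chelator, rose from 80.9 ± 1.39 to 109 ± 13.8 CPM (a log2 fold change of 0.43 with SE 0.08, adjusted p = 0.00772). Zinc transporter 10 (LOC_Os06g37010) fell from 40.4 ± 4.95 to 26.8 ± 4.29 CPM (adjusted p = 0.0205). Among aquaporins, the called plasma membrane members PIP1-3, PIP2-4 and PIP2-6 were lower and the called tonoplast members TIP2-2 and TIP2-3 higher. PIP2-4 (LOC_Os07g26630) was measured at 284, 271 and 267 CPM in the WT libraries and 218, 178 and 217 CPM in the OX6 libraries (a log2 fold change of -0.42 with SE 0.08, adjusted p = 0.00526). TIP2-3 (LOC_Os04g46530) was measured at 70.4, 57.4 and 59.8 CPM in the WT libraries and 79.2, 74.8 and 83.4 CPM in the OX6 libraries (a log2 fold change of 0.34 with SE 0.08, adjusted p = 0.0293). With 35 aquaporins tested and 5 called, this grouping was chosen after the values were seen and was not tested. Of 118 ABC transporters (2.54% called, beside 2.83% of all genes tested) 1 was called higher and 2 lower. ABCB11 (LOC_Os01g34970) was measured at 21.7, 19.4 and 19.5 CPM in the WT libraries and 55.5, 56 and 57.1 CPM in the OX6 libraries, a 2.78-fold difference with narrow spread on both sides (a log2 fold change of 1.48 with SE 0.07, adjusted p = 4.56e-09). ABCB19 (LOC_Os08g05690) went the other way, from 2.91 ± 0.176 to 0.299 ± 0.0574 CPM (a log2 fold change of -3.27 with SE 0.28, adjusted p = 2.29e-06). By edgeR on 5 libraries, the call was lost for LOC_Os06g03860 without WT root replicate 2 or 3 or OX6 root replicate 2 or 3 (adjusted p from 0.0658 to 0.132), zinc transporter 10 without WT root replicate 2 or 3 or OX6 root replicate 1 or 2 (adjusted p from 0.0721 to 0.133), PIP1-3 without WT root replicate 1, 2 or 3 or OX6 root replicate 2 or 3 (adjusted p from 0.0559 to 0.167), TIP2-2 without WT root replicate 1, 2 or 3 or OX6 root replicate 1, 2 or 3 (adjusted p from 0.058 to 0.289), and TIP2-3 without WT root replicate 2 or 3 or OX6 root replicate 1 or 3 (adjusted p from 0.0639 to 0.168). LOC_Os10g30770, LOC_Os06g03860, nicotianamine synthase 3, zinc transporter 10, PIP1-3, PIP2-4, TIP2-2 and TIP2-3 were not called in the fit of all 12 libraries.

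Among transcription factors, the AP2/ERF genes that were called were mainly lower. They made up 10.3% of the tested members, beside 2.83% of all genes tested. Of the AP2/ERF family, which includes ethylene and drought response factors, 1 of 107 tested members was called higher and 10 lower, and the median log2 fold change was -0.05. Over 14 alternative fits, the count called lower ran from 7 to 16. The RAP2-3 homologue (LOC_Os05g29810) was measured at 37.9, 32.1 and 39.9 CPM in the WT libraries and 18.1, 19.6 and 24.7 CPM in the OX6 libraries (a log2 fold change of -0.82 with SE 0.12, adjusted p = 0.00163). Ethylene-responsive factor 4 (LOC_Os05g41780), a repressor in Arabidopsis, fell from 60.5 ± 2.18 to 44.8 ± 5.05 CPM (adjusted p = 0.00601). Among GRAS and LOB proteins, 2 LBD41 homologues fell. LOC_Os01g32770 was measured at 123, 126 and 148 CPM in the WT libraries and 48.9, 48.1 and 41 CPM in the OX6 libraries, and LOC_Os01g03890 at 21.4, 27.4 and 25.1 CPM in the WT libraries and 8.16, 10.2 and 10.6 CPM in the OX6 libraries. In Arabidopsis LBD41 is induced by low oxygen, and in both rice genes the libraries of the genotypes were far apart (adjusted p = 5.47e-08 and adjusted p = 2.95e-06). Of the 26 fermentation and low-oxygen genes 1 was called lower and none higher, a share of 3.85% beside 2.83% of all genes tested. That call was not kept in all 6 fits that left out 1 library. Over 14 alternative fits, 0 to 2 of these genes were called higher and 0 to 2 lower. LBD12 (LOC_Os08g40520) rose from a low level, from 0.2 ± 0.11 to 1.69 ± 0.259 CPM (a log2 fold change of 3.06 with SE 0.40, adjusted p = 2.70e-04). LBD12 was not called in the fit of all 12 libraries.

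Of 106 MYB genes 4 were called lower and none higher, a share of 3.77% beside 2.83% of all genes tested. The count called lower over 14 alternative fits ran from 1 to 5, and it was 2 when WT root replicate 1 or OX6 root replicate 2 was left out, 1 when WT root replicate 2 or WT root replicate 3 was left out. The count called higher ran from 0 to 3 over them, and it was 1 when WT root replicate 2 or OX6 root replicate 3 was left out, so the calls were not one-sided in every fit. Of the 4 genes, 1 kept its call in all 6 fits that left out 1 library. MYB108 (LOC_Os03g20090) was measured at 17.1, 19.9 and 18.1 CPM in the WT libraries and 11.4, 10.2 and 8.67 CPM in the OX6 libraries (a log2 fold change of -0.86 with SE 0.11, adjusted p = 1.79e-04). The bHLH family gave 4 higher and 4 lower of 93. Among them 2 bHLH111 homologues fell, LOC_Os02g45010 from 43 ± 6.21 to 18.1 ± 1.82 CPM (a log2 fold change of -1.25 with SE 0.10, adjusted p = 5.70e-06) and LOC_Os07g28890 from 47.9 ± 7.23 to 32.5 ± 2.2 CPM (adjusted p = 0.00512). In contrast bHLH93 (LOC_Os03g04310) was measured at 72.9, 73 and 76.2 CPM in the WT libraries and 98.3, 98.9 and 103 CPM in the OX6 libraries (a log2 fold change of 0.44 with SE 0.06, adjusted p = 4.97e-04). Among homeobox genes TF1 (LOC_Os01g57890) rose from 7.35 ± 1.53 to 15.3 ± 0.769 CPM (adjusted p = 1.54e-04). Of 74 NAC genes 2 were called higher and 3 lower, and NAC67 (LOC_Os03g60080) fell from 25.8 ± 1.41 to 15.7 ± 2.53 CPM (adjusted p = 9.38e-04). WRKY genes gave 2 higher and 1 lower of 80, and none of 41 bZIP genes was called by edgeR (3 with an unadjusted p under 0.05, 0 called by DESeq2 and 0 by limma-voom). A Myb/SANT-like gene (LOC_Os01g21590) was among the 12 smallest adjusted p-values, at 64.1, 53.6 and 59.7 CPM in the WT libraries and 20.1, 20.9 and 23.4 CPM in the OX6 libraries (a log2 fold change of -1.46 with SE 0.08, adjusted p = 4.10e-08).

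Chaperone genes were called almost entirely lower. Heat shock proteins and their factors assist protein folding under heat and other stress, and here 1 of 150 tested members was called higher and 14 lower, and the median log2 fold change was -0.03. Over 14 alternative fits, the count called lower ran from 6 to 16, and it was 6 when WT root replicate 2 or WT root replicate 3 was left out. Heat stress factor B-2b (LOC_Os08g43334) was measured at 7.36, 7.41 and 7.41 CPM in the WT libraries and 2.02, 1.79 and 3.08 CPM in the OX6 libraries (a log2 fold change of -1.68 with SE 0.18, adjusted p = 3.34e-05). Heat stress factor C-2a (LOC_Os02g13800) fell from 14 ± 0.764 to 8.87 ± 0.572 CPM (adjusted p = 0.00122). DnaJ proteins, the partners of HSP70, made up several of the calls; the DnaJ 11 homologue LOC_Os08g43490 was measured at 26, 24.8 and 26.5 CPM in the WT libraries and 15.9, 15.1 and 15.2 CPM in the OX6 libraries (a log2 fold change of -0.74 with SE 0.08, adjusted p = 2.81e-05). A related gene outside the list, multiprotein-bridging factor 1c (LOC_Os06g39240), a heat-response coactivator in Arabidopsis, fell from 5.94 ± 0.191 to 2.74 ± 0.375 CPM (adjusted p = 5.41e-04). Cytosolic ribosomal proteins gave no call by edgeR among 218 tested (13 with an unadjusted p under 0.05, 0 called by DESeq2 and 0 by limma-voom), although 176 of them had a log2 fold change below 0 and the median was -0.06. Heat stress factor C-2a was not called in the fit of all 12 libraries.

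**Figure D3:**
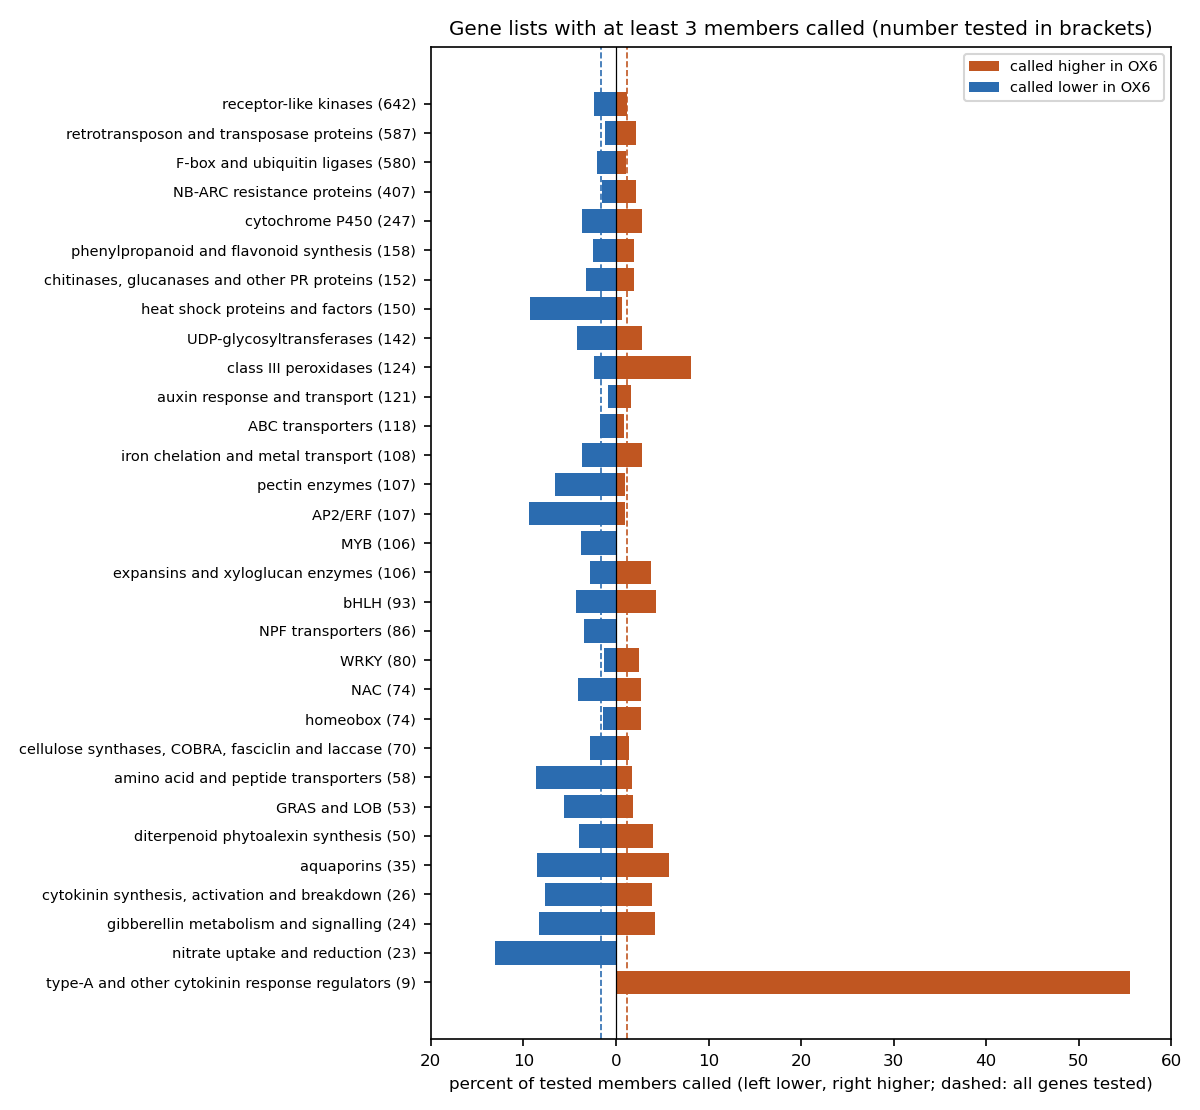
Share of the tested members of each gene list called higher (right, orange) or lower (left, blue) in OX6 roots, for the lists with at least 3 calls; dashed lines mark the shares over all genes tested, 1.19% and 1.64%. The response regulators reach 5 of 9 on the higher side, and the heat shock, AP2/ERF and nitrate lists extend on the lower side.

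Genes of the cell wall were called in both directions. The share called was 10.5% of class III peroxidases and 7.48% of pectin enzymes, beside 2.83% of all genes tested. Class III peroxidases, which oxidise wall phenolics, had 10 of 124 tested members called higher and 3 lower, with a median log2 fold change of 0.06. Peroxidase 3 (LOC_Os07g01420) was measured at 40.5, 32.4 and 35.5 CPM in the WT libraries and 50.3, 48.4 and 52.3 CPM in the OX6 libraries (a log2 fold change of 0.48 with SE 0.08, adjusted p = 0.00295). A peroxidase 5 homologue that has no LOC identifier went down from 2.97 ± 0.255 to 1.22 ± 0.258 CPM (adjusted p = 0.00382). Over 14 alternative fits, the count called higher ran from 1 to 14, and it was 2 when WT root replicate 2 was left out, 5 when WT root replicate 3 or OX6 root replicate 2 was left out. Expansins, which loosen walls, and xyloglucan enzymes had 4 of 106 called higher and 3 lower; the xyloglucan gene LOC_Os06g48200 rose from 6.74 ± 0.221 to 11.4 ± 1.25 CPM (adjusted p = 9.16e-04) and expansin A18 (LOC_Os03g06040) from 16.5 ± 2.06 to 23.8 ± 3.02 CPM (adjusted p = 0.0136). Of pectin enzymes 1 of 107 was called higher and 7 lower. Over 14 alternative fits, the count called lower ran from 2 to 9, and it was 4 when WT root replicate 3 was left out. Pectinesterases remove methyl groups from pectin, and LOC_Os05g29790 was measured at 114, 149 and 130.1 CPM in the WT libraries and 76.9, 85.9 and 87.6 CPM in the OX6 libraries (a log2 fold change of -0.65 with SE 0.09, adjusted p = 7.47e-04). Galacturonosyltransferase 9 (LOC_Os02g51130), of the pectin backbone family, fell from 25.2 ± 4.17 to 15.3 ± 0.812 CPM (adjusted p = 0.0011). Laccases polymerise lignin precursors: laccase-22 (LOC_Os11g48060) fell from 81.5 ± 3.54 to 51.7 ± 6.13 CPM and laccase-14 (LOC_Os07g01110) from 23.6 ± 0.742 to 16.7 ± 0.623 CPM, while laccase-7 (LOC_Os01g63190) rose from 42.2 ± 2.26 to 52.3 ± 1.55 CPM (adjusted p = 1.30e-04, adjusted p = 0.00163 and adjusted p = 0.0206). With 1 library left out, edgeR no longer called expansin A18 without WT root replicate 1 or 2 (adjusted p from 0.07 to 0.0736), and laccase-7 without WT root replicate 2 or 3 or OX6 root replicate 2 or 3 (adjusted p from 0.0605 to 0.113). Peroxidase 3, the peroxidase 5 homologue, expansin A18, laccase-14 and laccase-7 were not called in the fit of all 12 libraries.

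Receptor and resistance gene families lay near the overall share of calls. Receptor-like kinases had 8 of 642 called higher and 15 lower, and NB-ARC proteins, a family of intracellular immune receptors, 9 of 407 higher and 6 lower. An L-type lectin receptor kinase (LOC_Os04g03579) was measured at 163, 191 and 179 CPM in the WT libraries and 85.5, 98.8 and 95.9 CPM in the OX6 libraries (a log2 fold change of -0.93 with SE 0.07, adjusted p = 1.11e-06). A cysteine-rich receptor-like kinase (LOC_Os11g10710) was measured at 10.3, 7.71 and 11 CPM in the WT libraries and 21.2, 20.3 and 20.6 CPM in the OX6 libraries (a log2 fold change of 1.10 with SE 0.12, adjusted p = 2.56e-05). The RGA4 homologue LOC_Os11g45180 rose from 6.75 ± 0.165 to 14.6 ± 1.01 CPM (adjusted p = 5.68e-06), whereas the RPP13-like gene LOC_Os12g18360 fell from 10.7 ± 1.14 to 5.4 ± 0.19 CPM (adjusted p = 1.23e-04). Reads of these large families may be shared between near-identical copies. Of 580 F-box and ubiquitin ligase genes (3.10% called, beside 2.83% of all genes tested) 6 were called higher and 12 lower. Among them 2 EIN3-binding F-box genes fell; in Arabidopsis these proteins direct the breakdown of the ethylene response factor EIN3. EBF1 (LOC_Os06g40360) was measured at 201, 210.2 and 191 CPM in the WT libraries and 143, 156 and 149.6 CPM in the OX6 libraries (a log2 fold change of -0.42 with SE 0.06, adjusted p = 9.60e-04). EBF2 (LOC_Os02g10700) fell from 344 ± 12.6 to 262 ± 20.9 CPM (adjusted p = 0.00345). The kelch F-box gene LOC_Os02g11790 fell from 12.3 ± 2.13 to 6.12 ± 0.717 CPM (adjusted p = 3.83e-04). EBF1 and EBF2 were not called in the fit of all 12 libraries.

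In secondary metabolism, 7 of 247 cytochrome P450 genes were called higher and 9 lower, and 4 of 142 UDP-glycosyltransferases higher and 6 lower. A 7-deoxyloganetin glucosyltransferase homologue (LOC_Os02g28900) was measured at 38.3, 40.1 and 44 CPM in the WT libraries and 20.4, 21.1 and 18.8 CPM in the OX6 libraries (a log2 fold change of -1.02 with SE 0.08, adjusted p = 8.12e-07). Diterpenoid phytoalexins are antimicrobial compounds of rice; the ent-isokaurene C2-hydroxylase homologue LOC_Os02g38940 rose from 4.83 ± 0.464 to 10.6 ± 1.17 CPM (adjusted p = 5.63e-05), while its namesake LOC_Os02g09400 fell from 56.8 ± 1.68 to 43.2 ± 0.638 CPM (adjusted p = 0.00208). Ent-cassadiene C2-hydroxylase (LOC_Os01g72740) fell from 156 ± 7.71 to 113 ± 8.18 CPM (adjusted p = 6.75e-04). An isoflavone reductase homologue (LOC_Os01g01660) was measured at 101, 99 and 99 CPM in the WT libraries and 62.2, 61.6 and 62.8 CPM in the OX6 libraries, with very little spread in either group (a log2 fold change of -0.68 with SE 0.06, adjusted p = 3.27e-06). The 4-coumarate-CoA ligase 1 gene (LOC_Os08g14760), which activates phenylpropanoid acids, rose from 85.4 ± 3.98 to 110 ± 3.78 CPM (adjusted p = 0.00364). LOC_Os02g09400 and LOC_Os08g14760 were not called in the fit of all 12 libraries.

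Several of the larger shifts in CPM among the named genes were in abundant genes with small folds. A plastocyanin-like domain gene (LOC_Os11g24140) was measured at 1823, 2298 and 2211 CPM in the WT libraries and 2712, 2652 and 2721 CPM in the OX6 libraries (a log2 fold change of 0.35 with SE 0.08, adjusted p = 0.0249). Cytoplasmic fructose-bisphosphate aldolase 3 (LOC_Os01g67860), a glycolytic enzyme, was measured at 3259, 3136 and 3066 CPM in the WT libraries and 2613, 2632 and 2712 CPM in the OX6 libraries (a log2 fold change of -0.25 with SE 0.06, adjusted p = 0.0428). ATP-sulfurylase 3 (LOC_Os03g53230), which starts sulfate assimilation, fell from 1002 ± 72 to 777 ± 98.6 CPM (adjusted p = 0.039). A lipid transfer domain gene (LOC_Os07g18750) was measured at 631, 653 and 618 CPM in the WT libraries and 488, 389 and 403 CPM in the OX6 libraries (a log2 fold change of -0.57 with SE 0.08, adjusted p = 4.98e-04). The zinc finger protein 6 gene (LOC_Os01g04120) rose from 133 ± 0.056 to 199 ± 12.7 CPM (a log2 fold change of 0.58 with SE 0.06, adjusted p = 3.69e-05). Linker histone H1 (LOC_Os03g58470) rose from 474 ± 15.6 to 569 ± 27.1 CPM (adjusted p = 0.0326), the 1 call among 34 histone genes. In edgeR fits that left out 1 library, the call was lost for LOC_Os11g24140 without WT root replicate 1 or 3 or OX6 root replicate 1, 2 or 3 (adjusted p from 0.0589 to 0.13), aldolase 3 without WT root replicate 1, 2 or 3 or OX6 root replicate 2 or 3 (adjusted p from 0.0652 to 0.203), ATP-sulfurylase 3 without WT root replicate 1, 2 or 3 or OX6 root replicate 2 or 3 (adjusted p from 0.0721 to 0.168), and histone H1 without WT root replicate 1, 2 or 3 or OX6 root replicate 3 (adjusted p from 0.0697 to 0.148). LOC_Os11g24140, aldolase 3, ATP-sulfurylase 3, LOC_Os07g18750 and histone H1 were not called in the fit of all 12 libraries.

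A distinct set of 23 called genes was near silent in WT roots, with a mean under 0.1 CPM, and reached at least 1 CPM in OX6 roots; 1 gene showed the reverse. Most carry no informative name. LOC_Os07g32710 (chromosome 7, 19533176 to 19534577) had 3, 4 and 4 counts in WT and 16825, 19525 and 16823 in OX6. LOC_Os07g26100 had 1, 0 and 0 counts in WT and 5794, 5794 and 4972 in OX6. LOC_Os07g32700 had 0, 0 and 0 counts in WT and 1016, 859 and 1075 in OX6. Against a floor of 3 counts over the WT group, the last was at least 977-fold higher. The genes without a WT count that carry a name include pectinesterase 67 (LOC_Os03g19610), with 0, 0 and 0 counts in WT and 179, 108 and 162 in OX6, which was at least 149.5-fold higher. N-acetyl-gamma-glutamyl-phosphate reductase (LOC_Os10g35170), an enzyme of arginine synthesis, had 0, 0 and 0 counts in WT and 70, 96 and 139 in OX6 and was at least 99.9-fold higher. Formin-like protein 14 (LOC_Os12g05220), of an actin-nucleating family, had 0, 0 and 0 counts in WT and 71, 81 and 73 in OX6 and was at least 74.4-fold higher. The Dof zinc finger gene LOC_Os02g15350, of a plant transcription factor family, had 0, 2 and 1 counts in WT and 114, 104 and 144 in OX6. The reverse case was the phosphoinositide phosphatase SAC2 homologue (LOC_Os10g25180), with 55, 44 and 35 counts in WT and 3, 0 and 0 in OX6. In LOC_Os03g02470 the OX6 libraries differed widely among themselves, with 0, 0 and 1 counts in WT and 859, 316 and 684 in OX6. By edgeR on 5 libraries, the call was lost for LOC_Os03g02470 without WT root replicate 1, 2 or 3 or OX6 root replicate 3 (adjusted p from 0.0529 to 0.299).

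**Figure D4:**
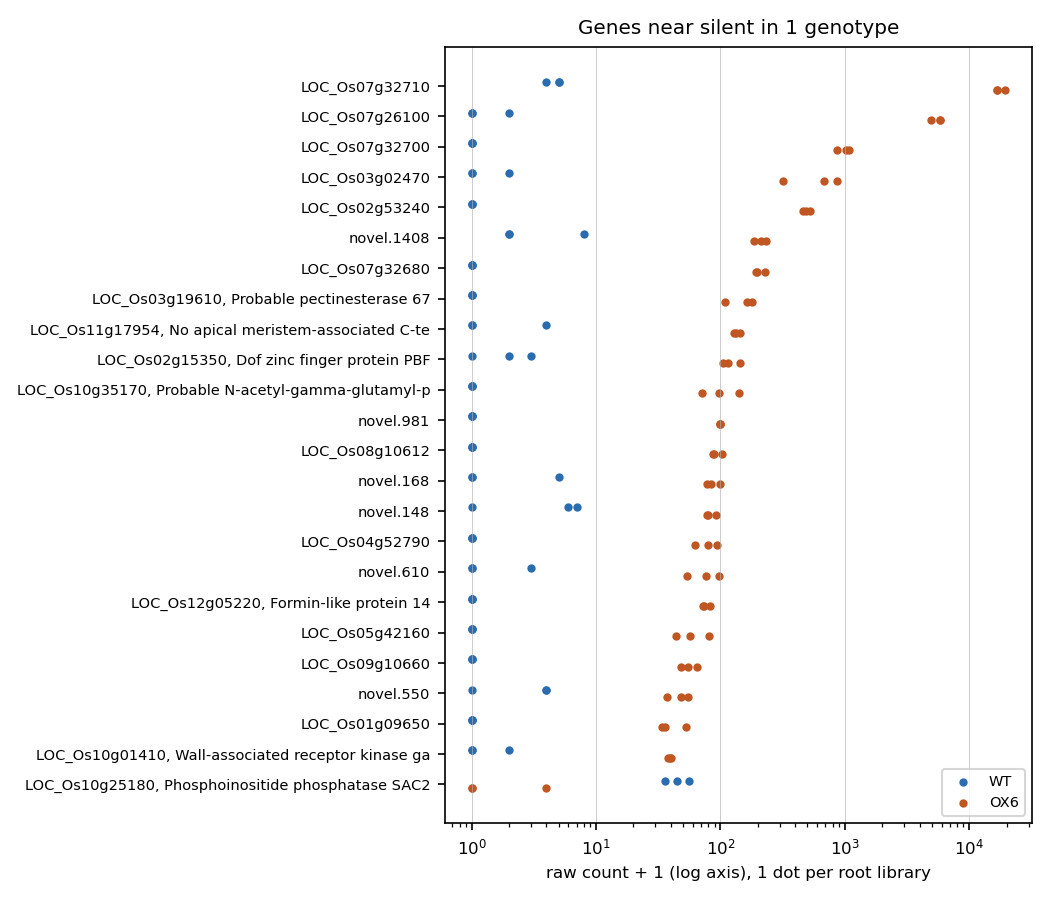
Raw count plus 1 (log axis) in each root library for the 23 genes near silent in WT roots and the 1 gene near silent in OX6 roots; blue dots are WT and orange dots OX6. In every gene shown the dots of the genotypes are separated by a wide gap, which follows in part from how the genes were chosen.

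Called genes also lay side by side. A run was defined as at least 3 called genes among 5 consecutive tested genes, and 13 runs held 49 genes. Each run begins and ends at a called gene, so that all its tested genes were called follows in part from these borders. On chromosome 4 from 32295071 to 32337872, all 7 tested genes were called lower, and 5 of them carry a wound-induced protein domain, while LOC_Os04g54280 is named for a transposon protein. Of these LOC_Os04g54240 was measured at 32.6, 33.1 and 42.6 CPM in the WT libraries and 8.83, 10.4 and 9.22 CPM in the OX6 libraries (a log2 fold change of -1.93 with SE 0.11, adjusted p = 8.40e-08). On chromosome 7 from 19514890 to 19534577, all 3 tested genes rose from near 0 and are among the 23 near silent in WT roots. Also on chromosome 4, from 29610154 to 29625132, 3 neighbouring genes with an FCS-type zinc finger, a plant family that binds the energy-sensing kinase SnRK1, fell. Their middle member LOC_Os04g49670 was measured at 24.5, 27.7 and 26.9 CPM in the WT libraries and 12.8, 13.7 and 11.6 CPM in the OX6 libraries (a log2 fold change of -1.05 with SE 0.09, adjusted p = 2.68e-06), and its neighbours LOC_Os04g49660 and LOC_Os04g49680 fell by 0.40 and 0.84 on the log2 scale. On chromosome 11 from 20182477 to 20261058 the 4 tested genes moved apart: the Adagio-like 3 gene (LOC_Os11g34460), a blue light receptor homologue, fell from 79.7 ± 2.47 to 63.9 ± 1.97 CPM (adjusted p = 0.00987), and a chitin elicitor-binding protein homologue (LOC_Os11g34570) rose from 1.29 ± 0.269 to 4.76 ± 0.486 CPM (adjusted p = 3.25e-05). On chromosome 5 from 2436923 to 2465040, all 4 tested genes were called lower and none has an informative name. The tested genes just after this run, LOC_Os05g05070 and LOC_Os05g05080, were not called, at log2 fold changes of -0.51 and -1.40. Near-identical neighbours can share reads, so genes of a run are not independent. With 1 library left out, edgeR no longer called LOC_Os11g34460 without WT root replicate 1 or 3 or OX6 root replicate 2 (adjusted p from 0.0541 to 0.0663), LOC_Os04g54280 without WT root replicate 1, 2 or 3 or OX6 root replicate 1, 2 or 3 (adjusted p from 0.0515 to 0.159), LOC_Os04g54310 without OX6 root replicate 1 (adjusted p = 0.0705), and LOC_Os05g05040 without WT root replicate 2 or 3 (adjusted p from 0.0677 to 0.0827). LOC_Os11g34460, LOC_Os11g34600, LOC_Os04g49660, LOC_Os04g54280, LOC_Os05g05020 and LOC_Os05g05040 were not called in the fit of all 12 libraries.

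**Figure D5:**
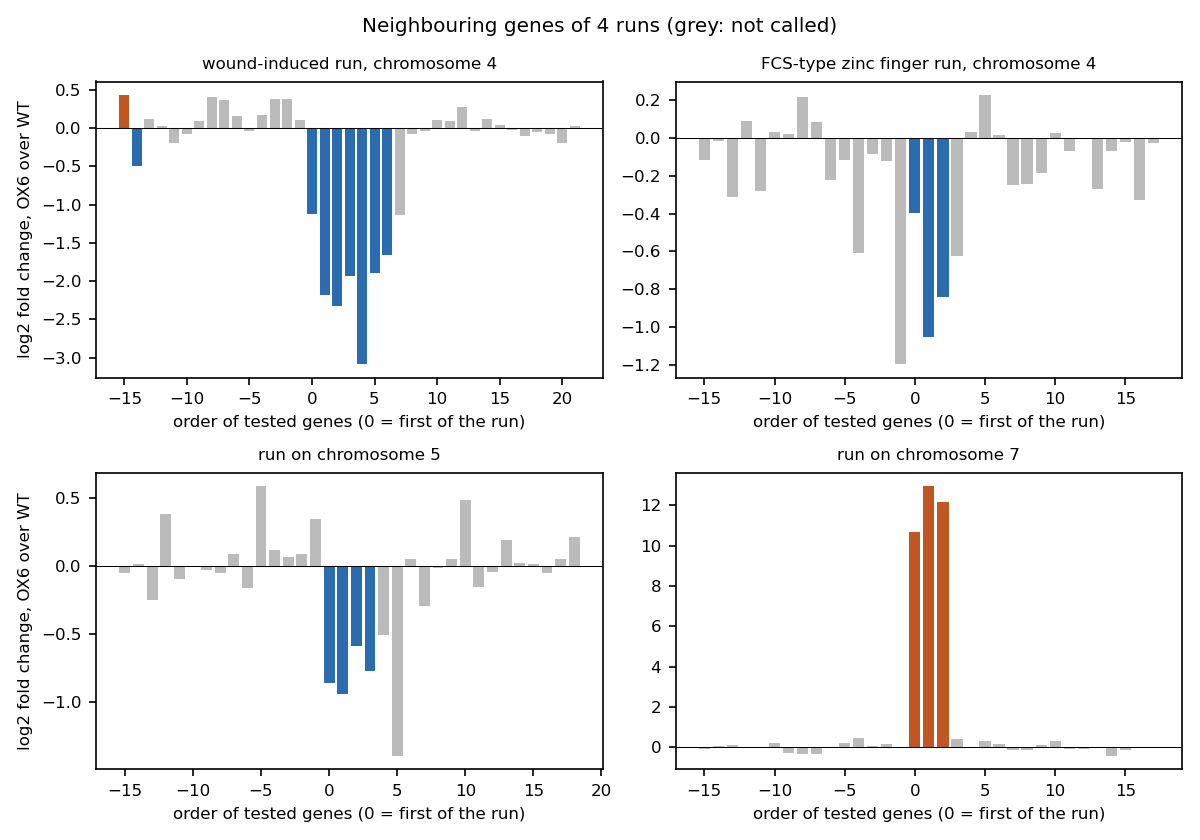
Log2 fold change of OX6 over WT roots for tested genes in chromosomal order around 4 runs; coloured bars are called genes and grey bars are not, and 0 on the horizontal axis is the first gene of a run. The 7 genes of the wound-induced run and the 3 of the run on chromosome 7 stand out from most neighbours, although the first grey bar after the wound-induced run is also below 0.

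The root differences were set beside those of shoots, where 1481 of 26251 genes (5.64%) were called. Of the 753 genes called in roots, 623 were tested in shoots and 171 were called there too, which is 22.7% of the root calls and 11.5% of the shoot calls. Of those, 137 had the same direction and 34 the opposite. The difference of the root and shoot effects was called for 572 of 29042 genes (1.97%), and for 135 of the 753. Nitrate reductase (LOC_Os02g53130) fell in roots, from 226 ± 14.9 to 153 ± 7.45 CPM, and in shoots went from 8.11 to 47.7 CPM, giving a root minus shoot difference in log2 fold change of -3.13 (adjusted p = 2.19e-08). The DREB1A homologue (LOC_Os09g35030), of the cold-response factors, was measured in roots at 5.43, 8.58 and 6.68 CPM in the WT libraries and 2.94, 2.99 and 2.22 CPM in the OX6 libraries, and its difference was -4.03 (adjusted p = 2.61e-06). A HSPRO2 homologue (LOC_Os01g63690) fell in roots from 91.4 ± 12.4 to 65.5 ± 6.17 CPM and had a difference of -1.88 (adjusted p = 6.99e-06). In edgeR fits that left out 1 library, the call was lost for LOC_Os01g63690 without WT root replicate 2 or 3 or OX6 root replicate 1 (adjusted p from 0.0525 to 0.0977).

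Over all 26574 genes tested by edgeR, 3622 had an unadjusted p under 0.05. Beside a call in 2.83% of all genes tested, several large groups gave no call in roots, by edgeR at an adjusted p under 0.05. These were the 57 potassium, sulfate and silicon transport genes (9 with an unadjusted p under 0.05, 0 called by DESeq2 and 0 by limma-voom) and the 82 genes of starch and sucrose metabolism (14 with an unadjusted p under 0.05, 2 called by DESeq2 and 0 by limma-voom). The most abundant member of the latter, sucrose synthase 1 (LOC_Os03g28330), had 4544, 4569 and 4295 CPM in the WT libraries and 4319, 4462 and 4512 CPM in the OX6 libraries, and its groups overlapped. Of the 37 leaf markers tested, 1 was called lower and none higher, with a median log2 fold change of -0.65. That member, a chlorophyll a-b binding protein gene (LOC_Os09g17740), was measured at 11.1, 9.94 and 7.3 CPM in the WT libraries and 3.43, 5.65 and 4.15 CPM in the OX6 libraries (a log2 fold change of -1.10 with SE 0.19, adjusted p = 0.00811). Of the 25 root markers tested, 3 were called higher and none lower, with a median log2 fold change of 0.13. In the 14 alternative fits 1 to 6 were called higher and 0 to 1 lower. Metallothionein-like protein 4A (LOC_Os12g38270) rose from 55.1 ± 1.1 to 90 ± 12.1 CPM (adjusted p = 1.03e-04). A 14 kDa proline-rich protein gene (LOC_Os02g44310) rose from 2273 ± 74.1 to 2745 ± 53.3 CPM (adjusted p = 0.0265). The third was nicotianamine synthase 3. By edgeR on 5 libraries, the call was lost for LOC_Os02g44310 without WT root replicate 1, 2 or 3 or OX6 root replicate 2 or 3 (adjusted p from 0.0526 to 0.142). Metallothionein-like protein 4A and LOC_Os02g44310 were not called in the fit of all 12 libraries. The summed leaf marker level overlapped between the genotypes, and its part in other differences was not tested.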

How the data were processed

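Polyadenylated RNA of WT and OX6 roots was sequenced, 3 libraries each, with groups and replicate numbers taken from the sample titles. The deposited values are raw counts per gene. The submitters' processing notes name HISAT2 2.0.5 and, for the counting, featureCounts 1.5.0-p3. Genome build, annotation and strandedness were not given in the sources used here, so reads of overlapping, antisense or near-identical genes may be shared, and coordinates are those of the file. A gene name is that of the nearest homologue listed in the file, or a Pfam domain, and LOC_Os09g15240 was taken as ZAS from background knowledge. Chi-square per gene between replicates was 4.61 to 12.6, so each library was counted once.

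Counts were tested with edgeR 4.0.16 (R 4.3.3) after filterByExpr (count of at least 10, total of at least 15) and TMM scaling. The robust quasi-likelihood test was two-sided, with Benjamini-Hochberg adjustment over all genes tested. The biological coefficient of variation was 9.61%. The organ difference used all 12 libraries in 1 fit with a mean per group. The steps were tested on simulated counts. Members and the 58 gene lists, matched by name, were chosen with earlier results of these data known. Named genes were ZAS, the 12 largest rises and falls by fold (with 5 CPM or more in the higher genotype) and by CPM difference, up to 6 called members of each list (the most abundant member where none was called), genes near silent in 1 genotype, genes in runs, the 12 smallest adjusted p-values and 8 genes opposite in shoots. The text describes a choice of these 265 genes, made after their values were seen and leaning to genes that kept their call when 1 library was left out. The patterns of the iron and glycolysis lists were corrected after their called members had been seen, to drop gene models matched by spelling alone, among them a pyruvate dehydrogenase kinase called lower. As alternatives, each library was left out, a replicate block was added, all 12 libraries shared 1 fit, scaling was by RLE or upper quartile, the filter was dropped or set to CPM above 1 in 3 libraries, 2 stricter thresholds were used, and DESeq2 1.42.0 or limma-voom (limma 3.58.1) replaced edgeR. Intervals for counts are not given, and precision is that of the spread between libraries.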

Additional observations from a re-analysis of the deposited data

Results flagged for a closer look

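The root and shoot effects of OX6 against WT differed by the interaction test of edgeR for ZAS and for the 8 genes with the smallest interaction p among those called in opposite directions in the organs. Values are the root minus the shoot log2 fold change. The difference was -5.56 for ZAS (LOC_Os09g15240), which rose in both organs. ZAS went from 3.21 to 364 CPM in roots and from 0.254 to 1533 CPM in shoots, so the difference depends in part on its low WT shoot level. The difference was -4.03 for the DREB1A homologue LOC_Os09g35030, -3.13 for nitrate reductase LOC_Os02g53130 and -2.63 for the wound-induced domain gene LOC_Os04g54300. It was -1.88 for the HSPRO2 homologue LOC_Os01g63690, -1.77 for LOC_Os02g55610, which has no informative name, and -1.70 for the LON domain gene LOC_Os03g29540. It was -1.67 for siroheme synthase LOC_Os01g44050 and -1.61 for the stem-specific protein TSJT1 homologue LOC_Os04g58280. All 8 genes besides ZAS fell in roots and rose in shoots. They were chosen for opposite calls, so the direction is part of the choice. The root call of LOC_Os04g58280 was lost without WT root replicate 1, 2 or 3 or OX6 root replicate 2. Adjusted p in those edgeR fits ran from 0.0502 to 0.0985. LOC_Os04g58280 was not called in roots in the fit of all 12 libraries.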

How the results depend on the processing

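The number of genes called in roots, 753, was within 1.5 times of the main count with upper-quartile or RLE scaling, without a count filter, with the CPM filter, DESeq2, limma-voom and the replicate block. No called gene changed direction in any alternative. In 1 fit of all 12 libraries the counts were 293 called, 119 higher and 174 lower. At an adjusted p under 0.01 the count was 344, and with at least 2-fold change 224. Without a count filter 497 genes were called higher. Leaving out 1 library gave 407 to 773 calls, 177 to 313 higher and 230 to 460 lower. The lowest total, 407, was without WT root replicate 3, and 459 were called without WT root replicate 2. Without WT root replicate 1, 207 were called higher, and without OX6 root replicate 2, 287 were called lower. The log2 fold change of ZAS stayed between 6.77 and 6.86. The organ difference had 572 calls, and 1200 with DESeq2. The cause of these shifts was not tested, beyond the smaller number of samples when a library is left out.

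The labels do not say whether the replicate numbers pair the samples. Deviations of same-numbered libraries correlated at -0.08, 0.08 and 0.01, and those of unlike-numbered libraries at -0.093 to 0.09. Taken around means of 3 libraries, such correlations cannot decide whether the numbers pair samples. With the replicate block, 796 genes were called in roots, 336 higher and 460 lower, and 497 in the organ difference. Of the 753 genes of the main fit, 669 were called with the block. Changes of sign in genes not called in roots were looked for only among the 265 named genes, and 2 changed sign around 0. Leaving out 1 library gave -0.0396 to 0.00433 for sucrose synthase 1 (LOC_Os03g28330) and -0.0216 to 0.0687 for TGAL10 (LOC_Os08g07970). Depth limits genes near the count minimum of 10.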
